A study of Mus musculus with 6 samples.

Results

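Annexins are calcium-dependent phospholipid-binding proteins, and 9 annexin genes of the mouse (*Anxa1*, *Anxa2*, *Anxa3*, *Anxa4*, *Anxa5*, *Anxa6*, *Anxa7*, *Anxa8* and *Anxa11*) were described here by gene symbol, out of 23698 genes counted in each library. Each of the 9 had a row of its own that was not joined to another gene. *Anxa9*, *Anxa10* and *Anxa13* were looked at separately.

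The cells were cultured squamous cell carcinoma cells (SCCc) of the genotype HrasG12V; Tgfbr2 fl/fl KO, which carry oncogenic Hras and lack the type II TGF-beta receptor. They derive from keratinocytes of the back skin of mice at postnatal day 0 and were used at passages 10 to 15. The number of clones behind the culture was not given in the sources used here. The extraction protocol shared by the libraries names cycloheximide, an inhibitor of translation elongation. The files hold 1 ribosome profiling library, which counts the mRNA fragments protected by ribosomes (footprints), and 2 RNA-seq libraries. The ribosome profiling library held 3549555 exon counts, of which 3198469 lay on coding sequence (CDS), and the exon counts of RNA-seq replicates 1 and 2 were 10707930 and 14003713. Wild-type and long-read libraries were not analysed here, so every value describes SCCc alone.

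Annexins share a core of repeats that, in most of them, binds acidic membrane lipids when calcium rises, whereas the N-terminal tail differs from member to member and carries the docking sites for S100 proteins and other partners. Through this core they bridge membranes, bind to exposed phosphatidylserine, take part in exocytosis and help to reseal a torn plasma membrane. Keratinocytes are known to be rich in annexins, and *Anxa1* and *Anxa2* are classical substrates of growth factor receptor and Src family tyrosine kinases.

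The keratinocyte identity of the cells was checked first. All 6 basal keratinocyte markers passed an RPKM (counts per kilobase of counted length, scaled to the exon counts of the library) of 1 in both RNA-seq replicates, with a summed RNA level of 14347 and 16466 RPKM in replicates 1 and 2, and *Krt5* was the most abundant of them. Of the 4 markers of differentiated keratinocytes that were read, 3 passed, with summed levels of 118 and 120 RPKM, mostly from *Ivl*, while *Lor* had 2 counts in each replicate. The 7 fibroblast markers summed to 9.98 and 15.6 RPKM, led by *Col3a1*, the 4 melanocyte markers to 5.38 and 5.47 RPKM, led by *Pmel*, and the 3 immune markers to 2.80 and 8.73 RPKM, led by *Lyz2*. Of these, 4 fibroblast markers, 1 melanocyte marker and 1 immune marker passed 1 RPKM in both replicates. *Cd3e* was at 0 counts in both replicates, *Tyr* had 1 count in each, *Mlana* had 1 count in replicate 1 and 0 in replicate 2, and the 2 endothelial markers summed to 0.160 and 0.270 RPKM, led by *Pecam1*. The fibroblast and immune sums were higher in replicate 2, and their part in the annexin values was not tested.

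The start codon and the bases around it are shown for the 9 members because translational efficiency is the measurement compared here, and a purine 3 bases before the ATG and a G just after it are the classical features of a favourable start. The sequences run from 6 bases before the start codon to position 24 of the CDS, on the coding strand of the principal transcript in GENCODE M21 (GRCm38), with the ATG in capitals.
Anxa1: ctaaaaATGgcaatggtatcagaattcctc
Anxa2: ttcaaaATGtctactgtccacgaaatcctg
Anxa3: actgtcATGgcctctatctgggttggacct
Anxa4: tacagcATGgaagccaaaggaggaaccgtg
Anxa5: agcatcATGgctacgagaggcactgtgact
Anxa6: gagaccATGgccaaaatagcacagggtgcc
Anxa7: ttcagaATGtcatacccaggctatcccccc
Anxa8: gacaggATGgcctggtggaaagcctgggtt
Anxa11: ctagccATGagctacccaggctaccctcca

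All 9 starts had a purine at position -3, a feature of 84.5% of 20350 mouse genes. A G followed the ATG in 6 of the 9, against 49.6% of those genes, and the exceptions were *Anxa2*, *Anxa7* and *Anxa11*. The starts of *Anxa7* and *Anxa11* were the most alike of all pairs by their longest shared run, tacccaggcta, which is 11 bases long, and they shared 16 of 27 positions outside the ATG. None of the 18 annotated transcripts of the members with a full CDS opened with a C and at least 4 further pyrimidines. This opening is the hallmark of 5′TOP mRNAs and was found in 2.27% of 45075 such transcripts of all genes. At so low a share, 18 transcripts cannot show whether the members differ from all genes. The search read annotated 5′ ends only, and the starts used in SCCc were not read here. The paper on these data cautions against relying on annotated transcripts alone. The relation of the start codon context and of the 5′TOP opening to translational efficiency was not tested.

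*Anxa1* and *Anxa2* made up most of the annexin mRNA. Per length, *Anxa1* held 65.6% and 63.6% of the RNA-seq level summed over the 9 members in replicates 1 and 2 (64.6% for the mean level, SD 1.40) and *Anxa2* held 21.1% and 22.8%. The other 7 members together held 13.3% and 13.6%. The order by RNA-seq level was *Anxa1*, *Anxa2*, *Anxa3*, *Anxa4*, *Anxa8*, *Anxa5*, *Anxa11*, *Anxa7* and *Anxa6*. Neighbours in this order were apart in both replicates except *Anxa8* and *Anxa5*, whose replicate ranges overlapped. In a bulk culture, fewer cells with an mRNA and less of it per cell cannot be told apart.

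**Figure D1:**
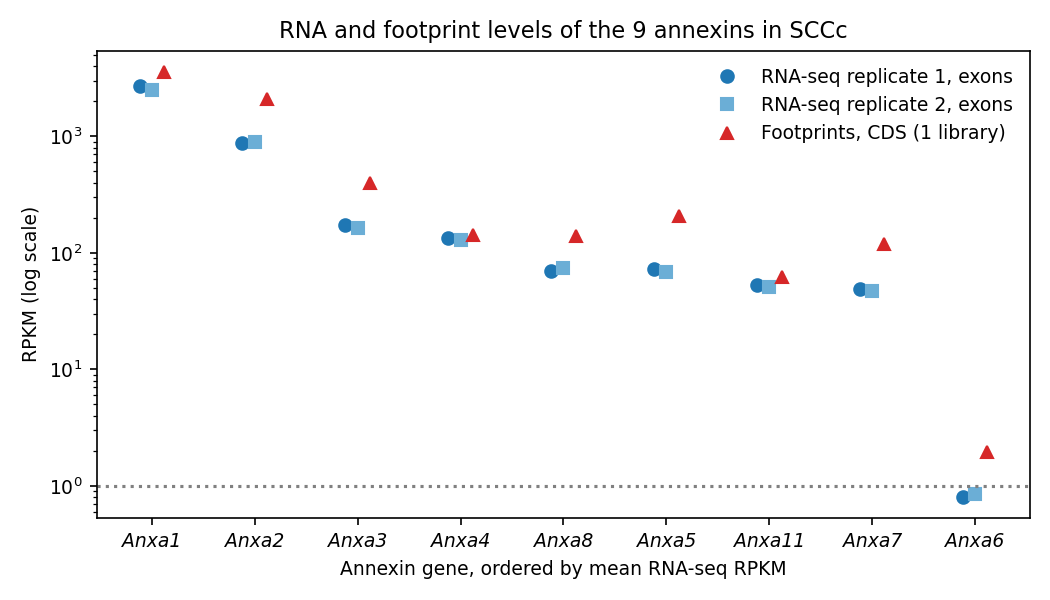
RPKM on a log scale for the 9 annexins, with RNA-seq over exons in replicates 1 and 2 (circles and squares) and footprints over the CDS in the 1 ribosome profiling library (triangles). The dotted line marks the RNA-seq filter of 1 RPKM; *Anxa1* and *Anxa2* stand above the other members in all 3 libraries and *Anxa6* lies under the filter.

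*Anxa1*, a phospholipase A2 inhibitor and ligand of formyl peptide receptors that keratinocytes also build into the cornified envelope, lies at chr19:20373428-20390944 on the - strand. Its RNA-seq level was 2716 RPKM in replicate 1 and 2481 RPKM in replicate 2, from 40567 and 48470 counts, and its footprint level was 3569 RPKM, from 13148 footprints on 1038 nt of CDS. This placed *Anxa1* at rank 14 by RNA and rank 32 by footprints among the 9862 genes that passed the filters (RPKM above 1 in both RNA-seq replicates, base mean above 25, footprints on a counted CDS). By counts, it held 0.411% of all footprints on CDS (95% Wilson interval 0.404% to 0.418%), 0.379% of the exon counts of replicate 1 and 0.346% of those of replicate 2. The log2 difference of replicate 2 from replicate 1 was -0.13, more than its counting error of 0.01 and within the SD of 0.20 of this difference over all genes that passed. That SD takes in genes with far fewer counts and larger counting errors than *Anxa1*. Of the 8 members that passed, 2 differed between the replicates by more than 2 counting errors.

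Translational efficiency divides the RPKM of footprints (CDS) by the RPKM of RNA-seq (exons, mean of both replicates) and is given on the log2 scale relative to the median of the genes that passed. For *Anxa1* it was 0.06 and 0.17 with RNA-seq replicates 1 and 2 and 0.12 with their mean (SD 0.08, counting error 0.01). This is close to the median gene and at percentile 54.1. Its sign rests on the genes taken as reference: against a reference of 4829 genes, each with 100 or more counts per library, it was -0.28. With counts not divided by length it was 0.70. Footprints came from 1 library, so none of the values has a replicate error on the footprint side.

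*Anxa2* (chr9:69453620-69491795, + strand) forms a heterotetramer with *S100a10* that binds actin and plasminogen at the cell surface. It stood at 875 and 888 RPKM in RNA-seq replicates 1 and 2, from 12879 and 17094 counts, and at 2075 RPKM in footprints, from 7491 footprints on 1017 nt. It ranked 49 by RNA and 93 by footprints. Log2 translational efficiency was 0.91 and 0.87 with the RNA-seq replicates and 0.89 with their mean (SD 0.03, counting error 0.02), which is 1.86 times the median gene.

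Set against each other, *Anxa1* had 2.95 times the RNA of *Anxa2* and 1.72 times its footprints per length. The difference in log2 translational efficiency, *Anxa1* minus *Anxa2*, was -0.78 with a combined error of 0.11 from counting and from the RNA-seq replicates. Accordingly, the share of *Anxa1* in the summed footprint density of the 9 members was 53.2%, less than its share of their RNA in either replicate, while that of *Anxa2* was 30.9%. Together both held 84.1% of the footprint density and 86.6% of the RNA.

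The median log2 translational efficiency of the 8 members that passed the filters was 0.75 (SD 0.03 over the RNA-seq replicates), and 6 of the 8 lay above the median gene. *Anxa5* exceeded 1, which is 1 of 8 members, and 20.7% of all 9862 genes did. Below -1 were 0 of 8 members and 21.1% of all genes. Whether counts among 8 members differ from these shares was not tested. The values ranged from -0.22 to 1.21 in the members, with an SD of 0.54 against 1.45 over all genes. The SD over all genes takes in genes with few footprints and large counting errors, so these SDs are not of like precision. Across the same 8 members, RNA spanned 54.3-fold and footprints 58.1-fold, so the members differed far more in mRNA level than in footprints per mRNA. The number of members above 1 was 0 of 8 against the reference genes with 100 or more counts per library, 2 of 7 where 80% or more of the annotated CDS had to be counted, and 3 of 8 with counts not divided by length. The shares of all genes above 1 in these settings were 18.8%, 19.6% and 19.2%.

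**Figure D2:**
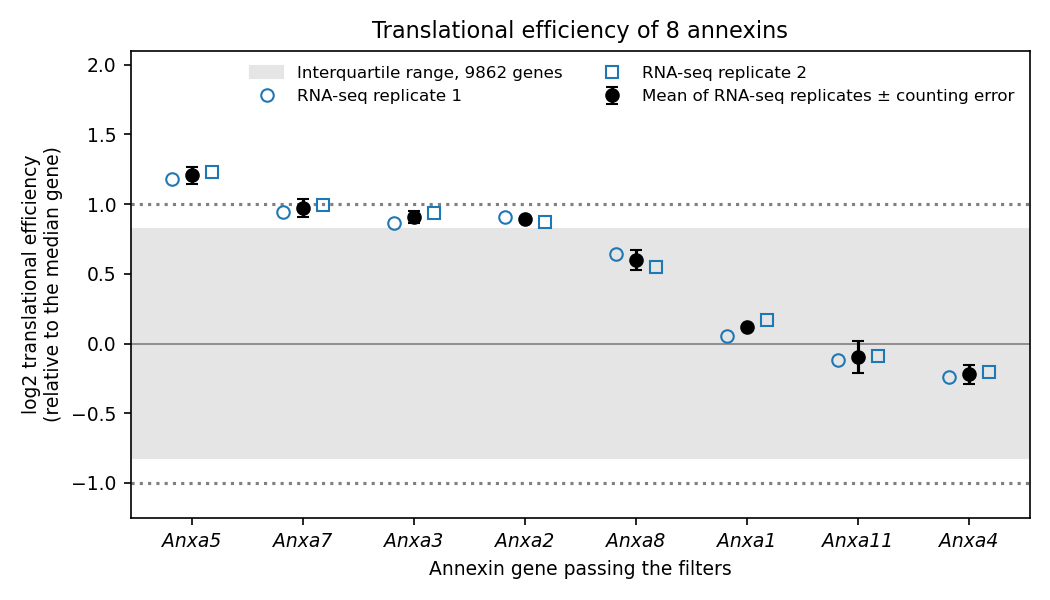
Log2 translational efficiency of the 8 annexins that passed the filters, relative to the median gene, with the mean RNA-seq level (filled circles, bars are counting errors) and with each RNA-seq replicate (open symbols). The band is the interquartile range of 9862 genes, -0.82 to 0.82, and dotted lines mark 1 and -1; *Anxa5*, *Anxa7*, *Anxa3* and *Anxa2* lie above the band and no member lies below it.

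Among members expressed at intermediate levels, *Anxa3*, *Anxa4*, *Anxa5* and *Anxa8* are short annexins of 319 to 327 codons like *Anxa1* and *Anxa2*, which have 346 and 339. *Anxa3* (chr5:96793339-96845966, + strand), an annexin of epithelia and myeloid cells that inhibits phospholipase A2, had 172 and 162 RPKM in RNA-seq replicates 1 and 2 and 396 RPKM in footprints. Its log2 translational efficiency was 0.90 (SD 0.05, counting error 0.04), not apart from that of *Anxa2*, with a difference of 0.01 and a combined error of 0.09. *Anxa8* (chr14:34085981-34100571, + strand), a blood-coagulation inhibitor known from stratified epithelia, had 70.3 and 74.0 RPKM in RNA-seq and 139 RPKM in footprints. It was at 0.60 (SD 0.06, counting error 0.07), apart from *Anxa2* above it by more than 2 combined errors. It was likewise apart from *Anxa1* below it, except with counts not divided by length, where *Anxa8* stood at 0.67 and *Anxa1* at 0.70.

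*Anxa5* and *Anxa4* marked the ends of the range. *Anxa5* (chr3:36448923-36475894, - strand), which assembles into lattices on exposed phosphatidylserine, had 72.1 and 68.9 RPKM in RNA-seq replicates 1 and 2, from 1331 and 1662 counts, and 206 RPKM in footprints, from 701 footprints on 957 nt. *Anxa4* (chr6:86736840-86793584, - strand), an epithelial annexin of apical and secretory membranes, had 133 and 128 RPKM in RNA-seq, from 2855 and 3598 counts, and 142 RPKM in footprints, from 483 footprints on a CDS of the same counted length. *Anxa4* thus exceeded *Anxa5* in RNA in both replicates, by 1.85-fold on the mean, and had 0.689 times its footprints.

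Log2 translational efficiency was 1.21 for *Anxa5* (1.18 and 1.23 with RNA-seq replicates 1 and 2, counting error 0.06, percentile 83.5) and -0.22 for *Anxa4* (-0.24 and -0.20, counting error 0.07, percentile 42.8). Their difference of 1.43, *Anxa4* minus *Anxa5* being -1.43 with a combined error of 0.09, amounts to 2.69-fold in footprints per mRNA. *Anxa5* was the highest of the 8 and *Anxa4* the lowest with RNA-seq counted over the CDS and without either RNA-seq replicate. With RNA-seq counted over the CDS, *Anxa5* (1.05) and *Anxa2* (0.96) were closer than 2 combined errors of 0.09, the error with RNA-seq on exons. With counts not divided by length, *Anxa2* (1.47) was the highest and *Anxa4* again the lowest. There, *Anxa2* was not apart from *Anxa5* (1.37) by 2 combined errors of 0.09. Against the reference genes with 100 or more counts per library, *Anxa5* was at 0.81 and so no longer above 1.

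*Anxa7* and *Anxa11* carry a long N-terminal tail rich in glycine, tyrosine and proline, and their coding sequences have 463 and 503 codons. *Anxa7* (chr14:20455260-20480133, - strand), or synexin, which was found as a protein that aggregates chromaffin granules, had 49.0 and 46.8 RPKM in RNA-seq replicates 1 and 2 and 119 RPKM in footprints, from 588 footprints. *Anxa11* (chr14:25842156-25886804, + strand), which tethers RNA granules to lysosomes and acts in cytokinesis, had 52.7 and 51.1 RPKM in RNA-seq and 61.5 RPKM in footprints, from 186 footprints. At RNA levels that differed by 1.08-fold, *Anxa7* had 1.94 times the footprints of *Anxa11*. Their log2 translational efficiencies were 0.97 (SD 0.03, counting error 0.06) and -0.10 (SD 0.02, counting error 0.11), with a difference of 1.07 and a combined error of 0.13. The difference shrank to 0.34 (combined error 0.13) with RNA-seq counted over the CDS, where they stood at 0.44 and 0.10. With counts not divided by length it was 0.21 (combined error 0.13), under 2 combined errors.

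The value of *Anxa11* rests on part of the gene. Its counted CDS was 852 nt, 50.8% of the union of its annotated CDS, and its counted 3′UTR was 0 nt. In GENCODE M21, 722 of the 1482 windows of 28 nt in its CDS (48.7%) also occur, on either strand, in transcripts of *Gm2260*, *Gm2274* or *Anxa11os*, and *Anxa11os* overlaps it in antisense. For the other 8 members the same search found 0 shared windows and the counted share of the annotated CDS was 86.7% or more. Whether counting used strand was not given in the sources used here, so reads of *Anxa11* and *Anxa11os* cannot be told apart. Genes annotated on the opposite strand also overlap *Anxa1*, *Anxa2*, *Anxa4* and *Anxa8*. The sign of the *Anxa11* value also changed, to 0.10 with RNA-seq counted over the CDS and to 0.68 with counts not divided by length.

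**Figure D3:**
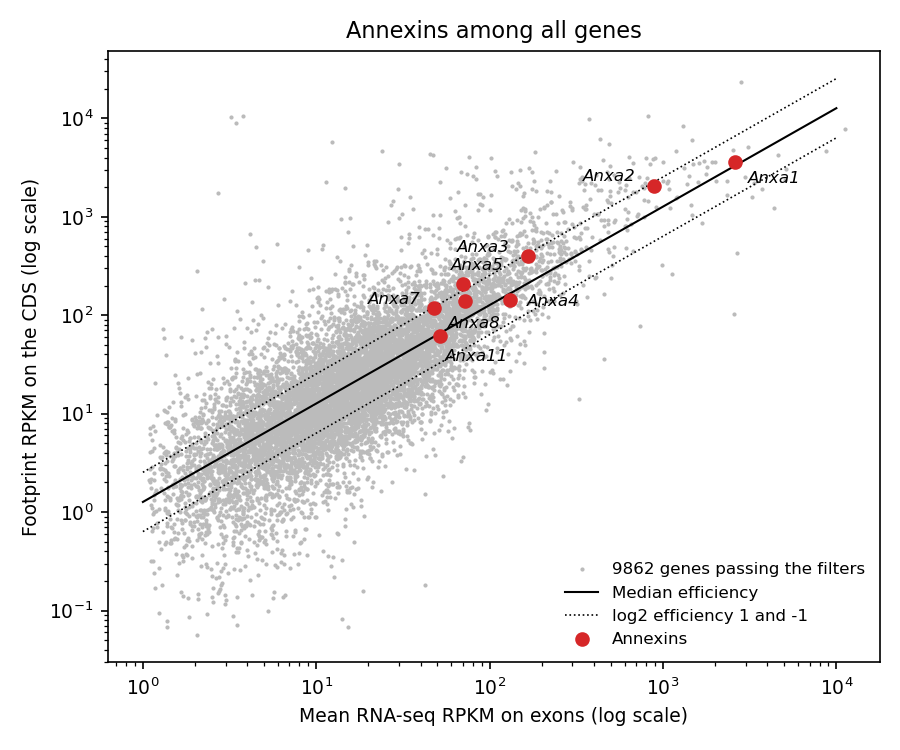
Footprint RPKM on the CDS against mean RNA-seq RPKM on exons, both on log scales, for 9862 genes that passed the filters (grey) and 8 annexins (red). The solid line is the median efficiency and dotted lines mark log2 efficiencies of 1 and -1; the annexins spread over 54.3-fold in RNA and stay between the dotted lines except *Anxa5*.

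*Anxa6* was close to the limit of detection. This member, whose core is duplicated into a protein of 673 codons and which organises cholesterol-rich membranes and endosomes (chr11:54979108-55033445, - strand), had 23 and 32.0 RNA-seq counts in replicates 1 and 2, or 0.807 and 0.858 RPKM. It had 14 footprints on 2019 nt, or 1.95 RPKM. Both RNA-seq levels were below 1 RPKM and the base mean was 24.6, so *Anxa6* fell just outside the filters on both. Without them its log2 translational efficiency was 0.89 relative to the median used above, with a counting error of 0.43. Its mean RNA level was 57.5-fold below that of *Anxa7*, the next member up.

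The annexins outside the 9 were low or without counts. *Anxa9*, an annexin whose core has lost calcium binding, passed the filters with 4.04 and 4.40 RPKM in RNA-seq replicates 1 and 2 and 8 footprints on its CDS. Its log2 translational efficiency of -1.30 carries a counting error of 0.52, and another gene, *Mindy1*, overlaps it on the opposite strand. *Anxa10* and *Anxa13* had 0 counts in all 3 libraries, where a count of 0 allows up to 3 counts a library.

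The order of the 8 members by translational efficiency was *Anxa5*, *Anxa7*, *Anxa3*, *Anxa2*, *Anxa8*, *Anxa1*, *Anxa11* and *Anxa4*. Neighbours differed by more than 2 combined errors at 3 places: *Anxa5* above *Anxa7* (difference 0.23, combined error 0.09), *Anxa2* above *Anxa8* (0.29, 0.08) and *Anxa8* above *Anxa1* (0.48, 0.16). The last of these steps was lost with counts not divided by length (-0.03, 0.16). *Anxa7*, *Anxa3* and *Anxa2* formed an unresolved group between 0.89 and 0.97. With RNA-seq counted over the CDS this group broke up, since *Anxa7* at 0.44 lay below *Anxa3* by 0.45 (combined error 0.08) and below *Anxa2* by 0.52 (combined error 0.09). With counts not divided by length *Anxa2* (1.47), *Anxa3* (1.20) and *Anxa7* (0.89) were each apart. *Anxa11* was not apart from *Anxa1* above it or from *Anxa4* below it. It was apart from *Anxa4* with RNA-seq counted over the CDS (difference 0.43, combined error 0.17) and with counts not divided by length (0.96, 0.13). With RNA-seq on exons and division by length, *Anxa1* exceeded *Anxa4* by 0.34 with a combined error of 0.09. RNA level and efficiency did not run in the same order, since *Anxa1*, first by RNA, lay below 5 other members by efficiency.

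Most footprints on the annexins lay on the CDS. Of the exon footprints of the 9 members, 96.2% lay on the CDS, 3.19% on the 5′UTR and 0.644% on the 3′UTR, compared with 90.1%, 4.50% and 1.84% over all genes. These sums are carried by *Anxa1* and *Anxa2*, with 3.54% and 1.53% of their footprints on the 5′UTR, while *Anxa11* (10.4%), *Anxa4* (8.32%) and *Anxa3* (6.13%) exceeded the share over all genes. In RNA-seq replicates 1 and 2, the members had 4.88% and 4.89% of their exon counts on the 5′UTR, compared with 3.48% and 4.03% over all genes. On the 3′UTR, RNA-seq gave 11.7% and 10.7% of the annexin exon counts, compared with 27.2% and 25.2% over all genes.

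The annotation behind the counted regions was not given in the sources used here, and in several members the counted 5′UTR differed in length from that of the principal transcript in GENCODE M21. It was 74 against 347 nt in *Anxa1*, 74 against 137 nt in *Anxa2* and 355 against 240 nt in *Anxa7*, so the densities hold for the counted positions only. On the 5′UTR, 7 members had at least 10 counts on each region in every library. In none of the 7 was the footprint density per nt above that of the CDS, against 23.6% of the 2369 genes with as many counts, and the median log2 ratio of 5′UTR to CDS was -1.76 in the 7 members and -0.94 over those genes. *Anxa4* had the densest 5′UTR relative to its CDS (-0.43, counting error 0.23, from 44.7 footprints on 119 nt). It was followed by *Anxa11* (-0.60, counting error 0.33), which was within counting error of *Anxa4*. With the RNA-seq ratio of the same regions taken off, *Anxa7* (0.43) and *Anxa11* (0.23) lay above *Anxa4* (-0.09). On the 5′UTR, *Anxa1* had the most footprints, 485 on 74 nt, and a ratio of -0.95 with a counting error of 0.07. RNA-seq on the same regions of *Anxa1* gave -0.22 and -0.25 in replicates 1 and 2, so the counted 74 nt were covered by RNA almost like the CDS and held fewer footprints per nt.

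*Anxa5* and *Anxa7* had the sparsest 5′UTRs. The ratio was -3.07 for *Anxa5* (counting error 0.27, percentile 5.83), with -1.53 and -1.33 in RNA-seq replicates 1 and 2. It was -3.39 for *Anxa7* (counting error 0.39), where RNA-seq was as sparse, at -3.82 and -3.83. With the RNA-seq ratio taken off, *Anxa5* was at -1.64 and *Anxa7* at 0.43, so only in *Anxa5* of this pair were footprints scarcer than RNA on the 5′UTR. RNA-seq was also sparse on the 3′UTR of *Anxa7*, at -2.25 and -2.27 relative to its CDS, and its log2 translational efficiency was lower, 0.44, with RNA-seq counted over the CDS.

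On the 3′UTR, 4 members had enough counts, and footprints were scarce in each. The median log2 ratio of 3′UTR to CDS was -5.20 in these 4 members and -4.84 over 1100 genes, and none of the 4 was denser than its CDS, against 3.55% of those genes. With the RNA-seq ratio taken off, the medians were -4.09 and -3.96. *Anxa1* had 67.5 footprints on 283 nt of 3′UTR, a ratio of -5.73 (counting error 0.18), while RNA-seq gave -1.34 and -1.56. *Anxa2* had 52.9 footprints there, a ratio of -5.30 (counting error 0.20), and RNA-seq gave -1.22 and -1.20. On *Anxa7*, 1.41 footprints lay on 1221 nt of 3′UTR, too few for a ratio.

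**Figure D4:**
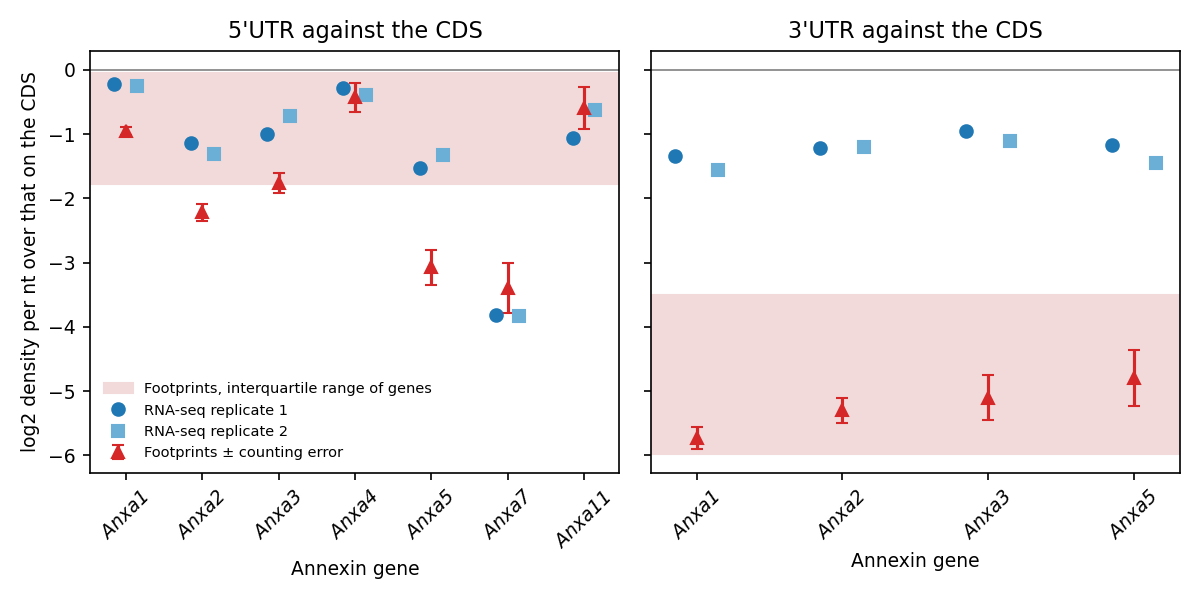
Log2 density per nt on the 5′UTR (left) and 3′UTR (right) over that on the CDS for the annexins with at least 10 counts on each region, with footprints as triangles (bars are counting errors) and RNA-seq replicates as circles and squares. The band is the interquartile range of the footprint ratio over 2369 genes (left) and 1100 genes (right); footprint ratios are below 0 in every member shown, and lowest on the 3′UTR.

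Several annexins act with a bound partner, and these were read beside them. *S100a10*, which forms the heterotetramer with *Anxa2*, had 838 and 779 RPKM in RNA-seq replicates 1 and 2, or 0.916 times the mean RNA of *Anxa2*, and 2503 RPKM in footprints, or 1.21 times the footprints of *Anxa2*. The mRNAs of the complex thus lay within 1.21-fold of each other in RNA and in footprints per length. *S100a11*, which binds the tail of *Anxa1*, had 428 and 443 RPKM in RNA-seq, with *Anxa1* at 5.97 times its mean RNA. Its footprint level of 6121 RPKM comes from 22.4% of its annotated CDS, and its RNA level from only 155 nt of counted exon.

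*Sri*, a calcium-binding partner of *Anxa7*, had 0.440 times its RNA and 0.579 times its footprints. In log2 translational efficiency *Sri* (1.37) was above *Anxa7* (0.97). It was below *Anxa7* with RNA-seq counted over the CDS (0.13 against 0.44) and with counts not divided by length (0.34 against 0.89). *Pdcd6*, a calcium sensor that binds *Anxa11*, had 0.803 times the RNA of *Anxa11* and 1.77 times its footprints. Its efficiency was above that of *Anxa11* (1.05 against -0.10), also with RNA-seq counted over the CDS (0.42 against 0.10). With counts not divided by length it was not (0.65 against 0.68). The values of *Anxa11* rest on 50.8% of its annotated CDS. For both formyl peptide receptors, *Fpr1* and *Fpr2*, through which *Anxa1* signals, 0 footprints were counted. *Fpr1* had 6 and 2.20 RNA-seq counts in replicates 1 and 2, and *Fpr2* fewer than 1 in each.

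Over the list of 10 annexin partners, 8 passed the filters, with a median log2 translational efficiency of 1.33, and 6 of the 8 were above 1, against 20.7% of all genes. The count fell to 2 of 7, *S100a11* and *S100a6*, against the reference genes with 100 or more counts per library, where the median was 0.89. It was 4 of 8 with RNA-seq counted over the CDS, where the median was 0.75, and 4 of 8 with counts not divided by length. Of all genes, 18.8%, 18.3% and 19.2% were above 1 in these settings, in the order given. The highest value was that of *S100a11* (3.47, counting error 0.05), which rests on 66 of the 294 nt of its CDS, so the counting error does not cover the part left uncounted. Next came *S100a6* (2.33, counting error 0.02, whole CDS counted) and *S100a4* (2.03, from 45.7 footprints, counting error 0.26), which do not differ beyond 2 counting errors. The lowest were *Ahnak* (-0.11, with 69.8% of its CDS counted) and *Plgrkt* (-0.10), respectively a scaffold that binds the *Anxa2* complex and a plasminogen receptor. *Ahnak* was above the median gene, at 0.15, with RNA-seq counted over the CDS. Of 11 plasma membrane repair genes 10 passed, with a median of 0.23. Of these, 0 were above 1, against 20.7% of all genes, and 2 were below -1, close to the 21.1% of all genes. Its highest were *Vps4b* (0.68) and *Pdcd6ip* (0.60), which act in the ESCRT pathway, and its lowest the ferlins *Dysf* (-1.07, from 15.6 footprints, counting error 0.38) and *Myof* (-1.06, counting error 0.03). The median of the repair list was -0.04 with RNA-seq counted over the CDS and -0.12 against the reference genes with 100 or more counts, so it lay on either side of the median gene. The number of repair genes below -1 was 0 with RNA-seq counted over the CDS, against 19.5% of all genes. With counts not divided by length, the caveolar coat gene *Cav1* was lowest, at -1.36, in place of the ferlins.

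Copines, another family of calcium-dependent phospholipid-binding proteins, were mostly under the filters. Of 9 copine genes 4 passed the filters, with a median of 0.08, from *Cpne3* (1.30) and the joined row of *Cpne1* and *Rbm12* (0.25) to *Cpne8* (-0.09) and *Cpne2* (-1.41). The copine median also lay on either side of the median gene, at -0.31 against the reference genes with 100 or more counts and just below 0 where 80% or more of the annotated CDS had to be counted. The annexin median of 0.75 lay between that of the partners and that of the repair genes.

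**Figure D5:**
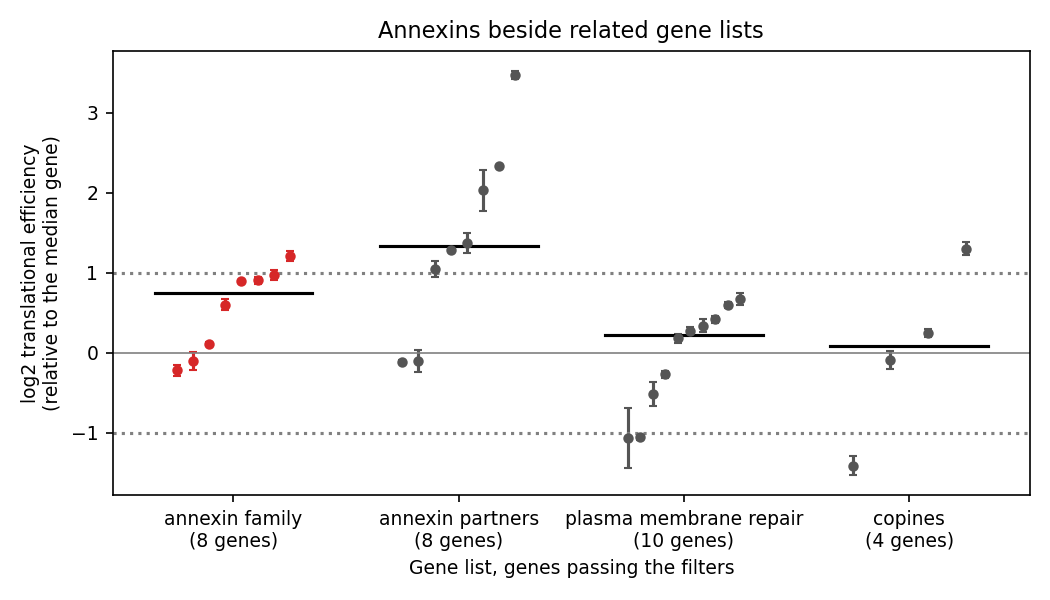
Log2 translational efficiency of the 8 annexins (red) and of the genes passing the filters in 3 related lists (grey), each point a gene with its counting error and each bar the median of its list. Dotted lines mark 1 and -1; the medians are 0.75 for annexins, 1.33 for annexin partners, 0.23 for plasma membrane repair and 0.08 for copines.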

How the data were processed

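The authors trimmed the reads, aligned them to GRCm38 with STAR 2.6.1, removed ribosomal, mitochondrial and tRNA matches from the footprints with Bowtie2 2.4.1, and counted genes with Plastid. The deposited estimated counts, which need not be whole, are not normalised. The RPKM values deposited by the authors use a library total far above the summed exon counts. The exon counts were 1.75% of the total implied by these values in the ribosome profiling library. They were 21.1% and 21.3% in RNA-seq replicates 1 and 2. Here, RPKM was recomputed with the exon sums (numpy 2.4.6, pandas 2.3.3). The base mean used DESeq2 1.42.0 size factors on rounded counts. No test was run, since there is 1 ribosome profiling library and 1 condition. Counting errors and intervals cover counting only. Over 12456 genes, RNA-seq replicates 1 and 2 differed beyond counting noise (chi-square 6.37 per degree of freedom). Members and lists were chosen with earlier results of these data known. Named genes were all members, the other annexins, the 3 lists with the highest and lowest 2 of each, and partners of named members; the genes nearest to the most abundant member are not reported here. Alternatives covered RNA-seq over the CDS, left-out replicates, filters, a pseudocount of 1 RPKM, edgeR 4.0.16 TMM factors, DESeq2 factors, length and the deposited RPKM. The calculation was tested on simulated counts.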

Additional observations from a re-analysis of the deposited data

How the results depend on the processing

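The median log2 translational efficiency of the annexin members was above that of all genes under every alternative run. The number of members below -1 was 0 in each, against 7.33% to 21.4% of all genes. In the sentences that follow, 4 medians are given in the order annexins, partners, repair genes and copines. They were 0.56, 0.75, -0.040 and 0.18 with RNA-seq counted over the CDS, and 0.85, 1.30, 0.19 and 0.22 with no filter on low values. They were 0.35, 0.89, -0.12 and -0.31 with at least 100 counts per library, where 0 members exceeded 1, against 18.8% of all genes. Where 80% or more of the annotated CDS had to be counted, which leaves out *Anxa11*, the medians were 0.95, 1.39, 0.33 and -0.035. In this setting 2 members exceeded 1, against 19.6% of all genes. With counts not divided by length the medians were 0.80, 0.92, 0.13 and 0.19. There, 3 members exceeded 1, against 19.2% of all genes, and *Anxa1* held 62.3% of the RNA. With TMM factors and no median taken off the medians were 1.65, 2.24, 1.13 and 0.99, and with DESeq2 size factors 1.72, 2.30, 1.20 and 1.05. In both, 6 of 8 members were above 1, against 46.5% and 49.1% of all genes. This is the shift of all genes by 0.91 and 0.97. With that shift taken off, 1 of 8 members was above 1 in both. With the deposited RPKM the repair median was 0.27. Without either RNA-seq replicate the annexin median ranged from 0.71 to 0.75. With at least 3 counts per region the median ratios to the CDS were -1.99 on the 5′UTR and -5.49 on the 3′UTR, against -0.98 and -5.00 over all genes with as many counts. With at least 10 counts and the RNA-seq ratio taken off they were -0.71 and -4.09, against 0.19 and -3.96. On the 3′UTR the members then lay close to all genes. Of 87 single-member efficiencies under the alternatives, 45 moved by less than their error. Besides the scaling shift, signs changed for *Anxa1* with at least 100 counts and for *Anxa11* with RNA-seq over the CDS or no division by length. The causes were not tested.

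The share of footprint density uses no RNA-seq library, so the alternatives on RNA-seq give it no new value. Footprints come from 1 library, and depth limits the values of *Anxa6*, *Anxa9* and several UTRs. No paired analysis was possible because no result comes from a test and only the RNA-seq libraries have replicates.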
